A study of Rattus norvegicus with 6 samples.

Results

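Notch ligands, receptors and targets were examined in rat soft tissue around dental implants and in oral mucosa. The genes were chosen by name: the ligands Jag1, Jag2 and Dll1, the receptors Notch1, Notch2 and Notch3, the receptor-modifying enzyme Lfng, and the target genes Hes1, Hey1 and Hey2. These 10 genes have 11 of the 31099 probe sets in the deposited table, counting only probe sets annotated with that single symbol, and 10 of its 14217 named genes. Notch1 has 2 probe sets and every other gene has 1.

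The first group, called peri-implant soft tissue, came from the left side of the upper jaw of male Sprague Dawley rats, where a titanium alloy implant had been placed in the socket of an extracted first molar. The second, called oral mucosal tissue, came from the right side, where the same tooth had been extracted and the socket healed without an implant. The teeth were removed at 4 weeks of age and tissue was taken 4 weeks later in both groups, so both carry a healed extraction wound and differ in implant and in side of the mouth together. Each group held 3 samples, each on its own array, and the labels do not say that the 3 came from separate rats. A p-value here thus reflects a spread between samples that could be technical, not a known spread between rats. The limma fit used below also draws the variance of each probe set toward a trend over all probe sets tested. Its p-values therefore do not rest on a gene's own spread alone.

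Notch signalling passes between touching cells. A ligand on one cell pulls on a receptor on its neighbour, the receptor is cut by an ADAM protease and then by gamma-secretase, and the released intracellular domain joins the DNA-binding protein RBPJ in the nucleus to switch on repressor genes of the Hes and Hey families. In stratified epithelium the pathway is known for driving cells out of the basal layer into differentiation, and in blood vessels for specifying arteries and mural cells. Because a signal is read out in the receiving cell, ligand, receptor and target transcripts can come from different cells of one tissue.

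The DNA just upstream of 4 of the genes is shown because it carries the letters that RBPJ is known to bind, or lacks them, in genes whose signals are compared next. Each line is the 250 bases before the RefSeq start of the gene in the GRCr8 build, 5′ to 3′ on the strand of the gene, with each match to TGGGAA on either strand in capitals. Hes1 lies on the minus strand at chr11:84213046-84213295, Hey2 on the plus strand at chr1:28640850-28641099, Dll1 on the minus strand at chr1:64993275-64993524 and Jag1 on the minus strand at chr3:144894884-144895133.
Hes1: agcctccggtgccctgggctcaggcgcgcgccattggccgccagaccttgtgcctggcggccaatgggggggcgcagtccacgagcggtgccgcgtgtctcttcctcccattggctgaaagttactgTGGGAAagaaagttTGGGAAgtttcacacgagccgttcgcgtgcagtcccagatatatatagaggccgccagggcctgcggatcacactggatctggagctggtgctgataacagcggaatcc
Hey2: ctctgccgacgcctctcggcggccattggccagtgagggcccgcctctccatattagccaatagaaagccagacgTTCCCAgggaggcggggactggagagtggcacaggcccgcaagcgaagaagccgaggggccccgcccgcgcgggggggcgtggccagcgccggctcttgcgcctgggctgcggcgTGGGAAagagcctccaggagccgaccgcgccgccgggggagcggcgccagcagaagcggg
Dll1: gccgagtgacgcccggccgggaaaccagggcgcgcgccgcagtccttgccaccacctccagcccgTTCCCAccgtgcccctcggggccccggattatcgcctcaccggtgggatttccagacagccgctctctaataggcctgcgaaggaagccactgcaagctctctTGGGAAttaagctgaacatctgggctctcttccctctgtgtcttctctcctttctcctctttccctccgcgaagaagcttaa
Jag1: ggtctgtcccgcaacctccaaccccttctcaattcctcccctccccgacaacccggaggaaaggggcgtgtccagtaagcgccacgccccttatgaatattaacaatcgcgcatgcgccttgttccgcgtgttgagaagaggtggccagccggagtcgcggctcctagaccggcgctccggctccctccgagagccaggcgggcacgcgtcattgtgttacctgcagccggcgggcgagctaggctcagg
Hes1 held 2 matches, beginning 123 and 109 bases upstream of the start and both on the gene's own strand. Hey2 held 2, at 175 bases upstream on the opposite strand and at 60 bases on its own strand, and Dll1 held 2, at 185 bases on the opposite strand and at 82 bases on its own strand. Jag1 held 0 in this window. Of the 10 genes, 9 had a promoter entry, and 4 of these held TGGGAA: Dll1, Hes1, Hey2 and Lfng. The same 4 held the longer GTGGGAA, which overlaps the shorter motif. Among all 33469 promoter windows of that length, 22.1% held TGGGAA on either strand and 5.27% held GTGGGAA. The N box CACNAG, bound by Hes repressors, was found in Hes1, Lfng, Notch1 and Notch3, and in 37.2% of all windows. A match describes the letters only and is not evidence of binding in these tissues.

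Of the 10 genes, 2 ligands fell in peri-implant tissue, Jag1 by a small and steady amount and Dll1 by a larger and more scattered one. The receptors and the target genes bright enough to test did not pass. Values are log2 signals, differences are peri-implant minus mucosal, and each comes from limma fitted over all 18625 probe sets whose mean lay above the 40th percentile (5.68), with Benjamini-Hochberg adjustment over all of them and a threshold of 0.05. That filter kept 7 of the 10 genes. Notch2, Hey1 and Lfng lay below it and are described by their values. Among the 7 tested, 2 were called (28.6%), against 26.1% of all 10585 genes tested, so the share of calls was near that of the whole array. By direction, 2 of 7 were called lower, against 11.0% of all genes, and 0 of 7 were called higher by limma, against 15.2%. At an unadjusted p under 0.05, 1 was higher and 2 were lower. The share of all genes at that unadjusted threshold is not given here, so these counts cannot be judged against it. The groups did not overlap for 3 of the 7, against 41.9% of all genes. The median difference of the 7 was -0.07, beside 0.03 over all genes tested, and their median absolute difference was 0.11, beside 0.24.

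**Figure D1:**
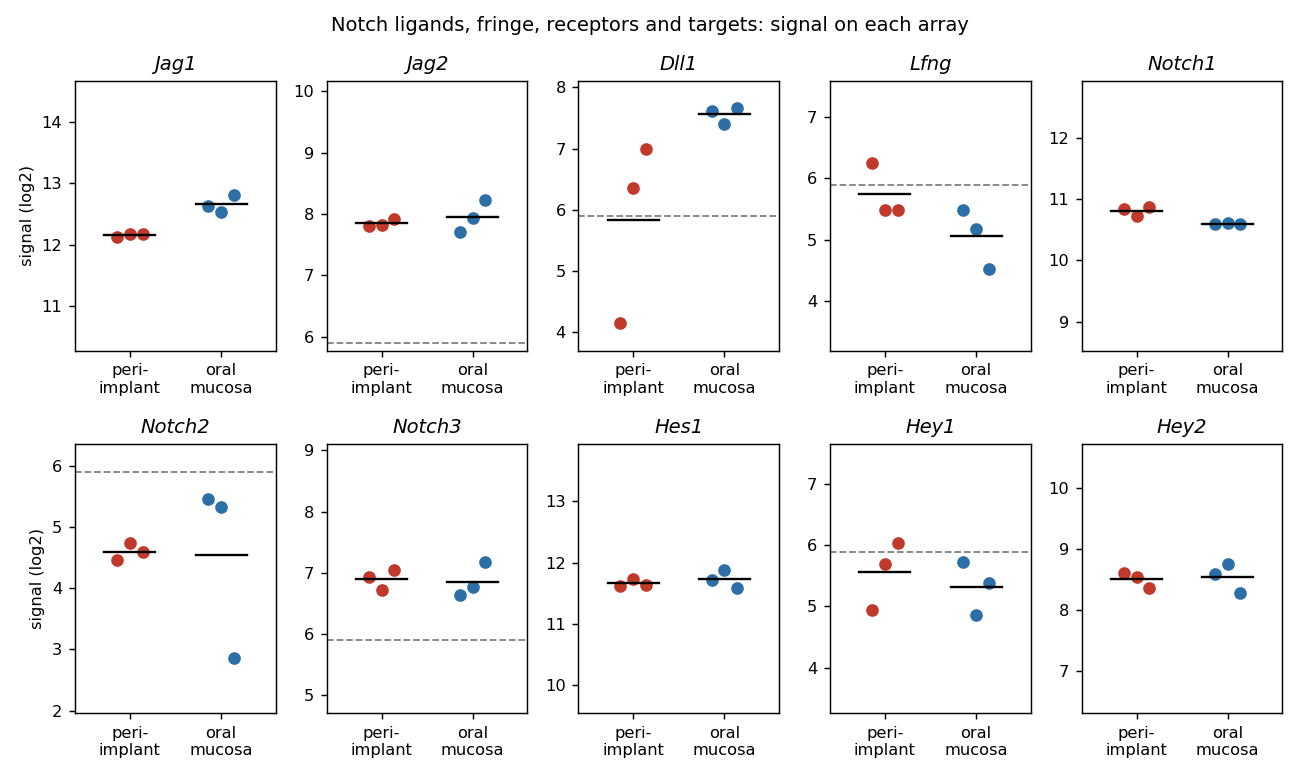
Log2 signal of each of the 10 genes on each of the 6 arrays, peri-implant tissue (red, left) and oral mucosa (blue, right), with black bars at the group means. Every panel spans the same number of log2 units, and the dashed line marks the dim floor of 5.90. The groups are apart for Jag1, Dll1 and Notch1, and the peri-implant points of Dll1 spread from 4.15 to 6.99.

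Jag1 encodes Jagged-1, a ligand of Notch receptors that many epithelial and vascular cells make. Its signal was 12.13, 12.18 and 12.18 on the peri-implant arrays, against 12.63, 12.53 and 12.81 on the mucosal arrays. All peri-implant values lay below all mucosal ones, and the peri-implant arrays lay close together. The means were 12.16 ± 0.03 in peri-implant tissue and 12.66 ± 0.14 in mucosa (SD, n = 3 each). Jag1 fell by 0.49 on the log2 scale (SE 0.08, 95% confidence interval -0.67 to -0.32, limma adjusted p = 5.98e-04), which is 29.0% less signal. The size was close to the median fall of the 1161 genes called lower, 0.56 on the log2 scale. The call held under all 16 alternatives tried, with differences from -0.56 to -0.42 and limma adjusted p from 2.26e-04 to 0.0285. Among them, the most variable probe set repeats the reported fit, since Jag1 has a single probe set.

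Dll1 encodes Delta-like 1, a ligand of the Delta family. Its signal was 4.15, 6.35 and 6.99 on the peri-implant arrays, against 7.62, 7.40 and 7.66 on the mucosal arrays. The groups did not overlap, the mucosal values lay close together, and 1 peri-implant array lay far below the other 2 and below the dim floor of 5.90, the 40th percentile of all single values. The means were 5.83 ± 1.49 in peri-implant tissue and 7.56 ± 0.14 in mucosa (SD, n = 3 each), and Dll1 fell by 1.73 on the log2 scale (SE 0.56, 95% confidence interval -2.94 to -0.53, adjusted p = 0.0405 in limma). The size rested on peri-implant array 1: without it the difference was -0.89 and the call was lost (limma adjusted p = 0.0557). The call was also lost without mucosal array 1, 2 or 3 (adjusted p = 0.101, 0.0665 and 0.093 in limma), and under 4 other settings of the 15 in which Dll1 was tested (limma adjusted p over all 15 from 0.00892 to 0.16). With values below 5.90 raised to 5.90 the difference was -1.15 (limma adjusted p = 0.00892). Among the 15 settings, the most variable probe set repeats the reported fit, since Dll1 has a single probe set.

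Jag2 encodes Jagged-2, the second ligand of the Jagged family. Its signal was 7.80, 7.83 and 7.92 on the peri-implant arrays, against 7.71, 7.93 and 8.23 on the mucosal arrays. The groups overlapped, and the difference of -0.11 (95% confidence interval -0.52 to 0.30) did not pass (limma adjusted p = 0.738). On each array the log2 ratio of Jag1 to Jag2 was 4.33, 4.35 and 4.26 in peri-implant tissue, against 4.92, 4.60 and 4.59 in mucosa. The groups of this ratio did not overlap, and it was lower by 0.39 in peri-implant tissue (exact permutation test, two-sided, p = 0.1, the smallest that 3 against 3 can give). This compares how far the signals of these probe sets moved, not their levels.

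**Figure D2:**
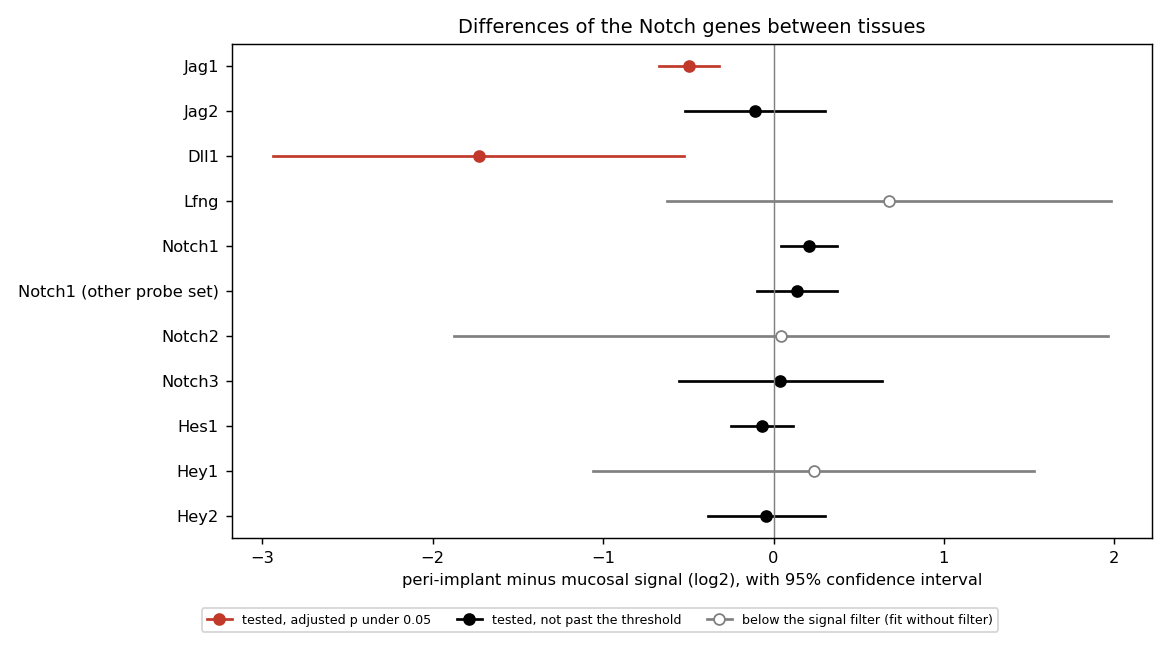
Peri-implant minus mucosal difference in log2 signal for each probe set of the 10 genes, with 95% confidence intervals from limma. Red marks the tested genes past the threshold, Jag1 and Dll1, whose intervals lie below 0. Open grey symbols mark Notch2, Hey1 and Lfng, which lay below the signal filter and take their intervals from the fit without a filter.

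Among the receptors, Notch1, the main receptor of stratified epithelium, had a signal of 10.84, 10.71 and 10.86 on the peri-implant arrays, against 10.59, 10.61 and 10.60 on the mucosal arrays. Every peri-implant value was above every mucosal one, by little. The difference of 0.21 (SE 0.08, 95% confidence interval 0.04 to 0.37), or 15.6% more signal, did not pass after adjustment (unadjusted p = 0.018, limma adjusted p = 0.0708). Its limma adjusted p stayed above 0.05 in all 16 alternatives, from 0.0506 to 0.412. The second Notch1 probe set read 9.75, 10.04 and 9.91 in peri-implant tissue, against 9.90, 9.76 and 9.62 in mucosa. Its groups overlapped, and its difference of 0.14 had the same sign and did not pass (limma adjusted p = 0.412).

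Notch3, known as the receptor of vascular smooth muscle and pericytes, had a signal of 6.92, 6.72 and 7.05 in peri-implant tissue, against 6.64, 6.76 and 7.17 in mucosa. The groups overlapped throughout, with a difference of 0.04 (95% confidence interval -0.55 to 0.63, limma adjusted p = 0.936). Notch2, a receptor expressed in many tissues, read 4.46, 4.73 and 4.58 in peri-implant tissue, against 5.45, 5.33 and 2.86 in mucosa. All 6 of its values were dim, and the mucosal arrays fell on both sides of the peri-implant ones. Fitted without the filter its interval ran from -1.88 to 1.96, so a difference in either direction was not detectable for this probe set.

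Lfng encodes Lunatic fringe, a Golgi glycosyltransferase that alters which ligands a Notch receptor answers to. Its signal was 6.25, 5.48 and 5.48 in peri-implant tissue, against 5.49, 5.18 and 4.53 in mucosa. All but peri-implant array 1 were dim, the groups just overlapped, and the difference was 0.68 with an interval of -0.63 to 1.98 without the filter (limma adjusted p = 0.577).

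Of the target genes, Hes1, a repressor induced directly by Notch and also by other signals, had a signal of 11.63, 11.73 and 11.64 in peri-implant tissue, against 11.72, 11.89 and 11.59 in mucosa. The groups overlapped and the arrays lay close together. The difference was -0.07 (SE 0.08, limma adjusted p = 0.612), and its 95% confidence interval of -0.25 to 0.11 on the log2 scale corresponds to a ratio of peri-implant to mucosal signal between 0.841 and 1.08. Hey2, a related repressor known from heart and arteries, had a signal of 8.61, 8.54 and 8.36 in peri-implant tissue, against 8.60, 8.75 and 8.28 in mucosa. Its groups also overlapped, with a difference of -0.04 (95% confidence interval -0.39 to 0.30, a ratio between 0.765 and 1.23, limma adjusted p = 0.886). Hes1 and Hey2 both carry the RBPJ letters shown above. Hey1, its close relative in endothelium, read 4.94, 5.70 and 6.04 in peri-implant tissue, against 5.73, 4.87 and 5.38 in mucosa. All but peri-implant array 3 were dim, and the interval without the filter was -1.06 to 1.53.

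Set against Hes1 on the same arrays, Jag1 stood 0.50, 0.45 and 0.55 above it in peri-implant tissue, against 0.91, 0.65 and 1.22 in mucosa, as log2 ratios. These groups did not overlap, and the ratio was lower by 0.43 in peri-implant tissue (exact permutation test, two-sided, p = 0.1, the smallest possible). Set against Notch1, the Jag1 ratio was 1.29, 1.47 and 1.32 in peri-implant tissue, against 2.04, 1.93 and 2.22 in mucosa, lower by 0.70 (exact permutation p = 0.1, two-sided). Against Hey2 the ratios of the groups overlapped (exact permutation p = 0.2, two-sided), as did those of Notch1 to Hes1 (exact permutation p = 0.2, two-sided). These are 5 ratios with that of Jag1 to Jag2, and none can pass 0.05 with 3 arrays a group, before or after adjustment. All but that of Notch1 to Hes1 have Jag1 as numerator. They restate the fall of Jag1 from the same values and are no separate evidence for it.

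The rest of the pathway was read from lists of 61 further genes, of which 49 were on the array under 1 symbol and 43 passed the filter. Of these, 5 were higher, 3 were lower and 35 did not pass (18.6% called, against 26.1% of all genes), with a median difference of 0.09. Adam17, the protease known for shedding TNF that can also cut Notch receptors, rose by 0.58 (SE 0.09, limma adjusted p = 2.84e-04). Its signal was 11.49, 11.59 and 11.42 in peri-implant tissue, against 10.90, 10.80 and 11.06 in mucosa, without overlap. It was the 1 of 7 tested receptor-cleavage genes that was called (14.3%, against 26.1% of all genes). Adam10, the protease best known for cutting Notch, stood at 7.21 in peri-implant tissue and 7.11 in mucosa, and the gamma-secretase subunit Psenen at 11.94 and 12.06 (adjusted p = 0.877 and 0.24 in limma). Furin, which processes the receptor precursor, stood at 9.45 in peri-implant tissue and 9.29 in mucosa (limma adjusted p = 0.36).

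**Figure D3:**
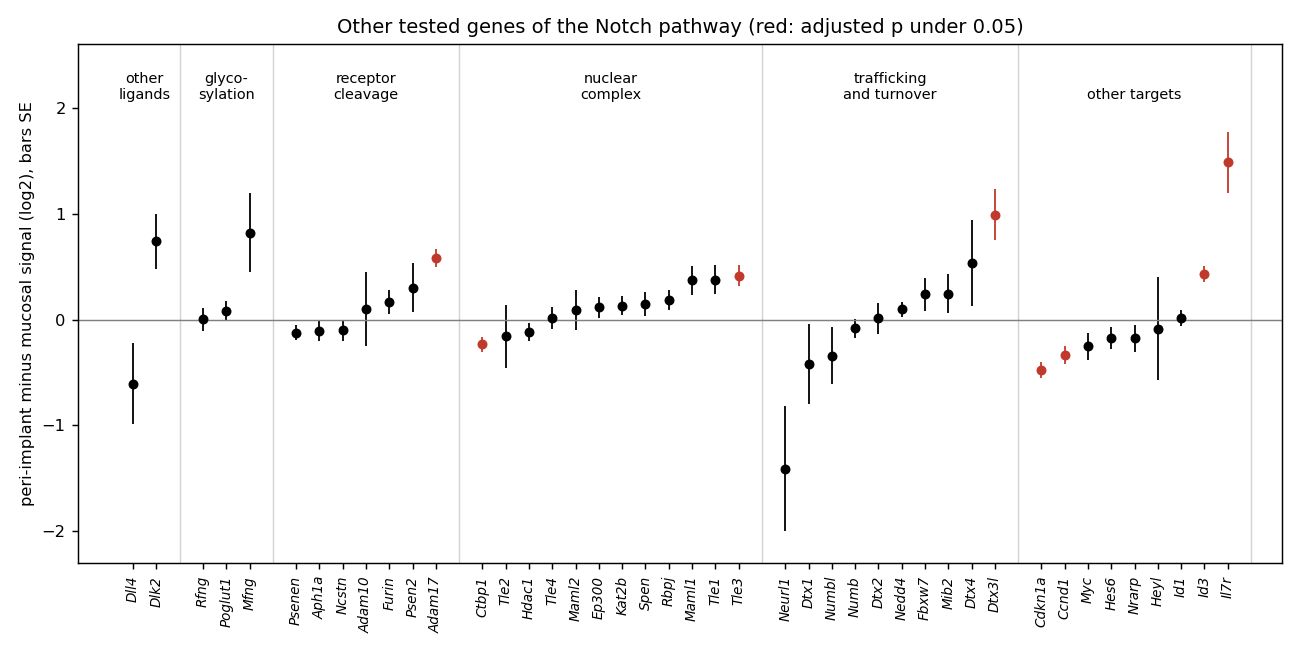
Peri-implant minus mucosal difference in log2 signal for the 43 tested genes of the wider pathway, grouped by role, with bars of 1 SE. Red marks the 8 genes past the threshold, 5 above 0 and 3 below.

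In the nuclear complex 1 of 12 tested genes was higher and 1 lower by the brightest probe set. That was 16.7% called, against 26.1% of all genes. Tle3, a co-repressor that Hes proteins recruit, rose by 0.41 (SE 0.10, limma adjusted p = 0.00976). With no trend in the variance model it missed the threshold (limma adjusted p = 0.0777, range over its alternatives 0.00101 to 0.0777). Ctbp1, another co-repressor, fell by 0.23 (SE 0.07, limma adjusted p = 0.0352), and missed the threshold in 9 of its 16 alternatives (adjusted p between 0.019 and 0.152 in limma). Among those 9 were the fits without any 1 of the 3 peri-implant arrays, or without mucosal array 1 or 3. Tle1 had a difference of 0.38 and did not pass (limma adjusted p = 0.0648). Rbpj, the DNA-binding partner of the receptor, did not pass with any of its 3 probe sets, whose differences were 0.19, -0.27 and -0.27 (adjusted p = 0.188, 0.233 and 0.604 in limma). Hdac1 did not pass with its brighter probe set (difference -0.12, limma adjusted p = 0.389). Its dimmer probe set fell by 0.67 (limma adjusted p = 0.00202).

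Of 10 tested genes of trafficking and turnover 1 was called by its brightest probe set (10%, against 26.1% of all genes). Dtx3l, a ubiquitin ligase of the Deltex family also known as an interferon-responsive gene, rose by 0.99 (SE 0.24, limma adjusted p = 0.00922). It read 8.353, 8.504 and 8.844 in peri-implant tissue, against 7.34, 7.24 and 8.15 in mucosa, and it missed the threshold with no trend in the variance model (limma adjusted p = 0.0621, range 7.37e-04 to 0.0621). Neurl1, an E3 ligase that promotes ligand uptake in flies, had a difference of -1.41 that did not pass (limma adjusted p = 0.11), with peri-implant array 2 at 3.74 and the other arrays between 6.003 and 7.038. The difference was -0.57 without that array (limma adjusted p = 0.348), -0.69 with dim values raised to the floor (limma adjusted p = 0.0542) and -1.95 without peri-implant array 3, where it passed (limma adjusted p = 0.0413, range over its alternatives 0.0413 to 0.348). The peri-implant mean of Neurl1, 5.41, lay below the filter cutoff, so the gene was tested only because of its mucosal signal. Its pass without peri-implant array 3 therefore carries no weight. Fbxw7, which targets the receptor's intracellular domain for degradation, had a difference of 0.24 (limma adjusted p = 0.328). The brightest probe set of Nedd4 had a difference of 0.10 and did not pass (limma adjusted p = 0.371). A dimmer Nedd4 probe set fell by 0.59 (limma adjusted p = 0.00871). The second brightest had the opposite sign, a difference of 0.17, and did not pass (limma adjusted p = 0.123). Other tested Nedd4 probe sets had differences of -0.04 and -0.23 and did not pass (adjusted p = 0.921 and 0.598 in limma). The dimmest lay below the filter.

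Further ligands and sugar-modifying enzymes gave 0 calls in limma, against 26.1% of all genes. Of these, 1 of 2 and 1 of 3 tested genes had an unadjusted p under 0.05 in limma. No share of all genes at that unadjusted threshold is given beside these counts. Dlk2, a Delta-like protein that lacks the receptor-binding domain of the classical ligands, stood at 7.33 in peri-implant tissue and 6.59 in mucosa, without overlap (limma adjusted p = 0.0586). Dll4, the ligand of arterial endothelium, read 5.201, 6.155 and 5.82 in peri-implant tissue, against 6.21, 6.43 and 6.35 in mucosa (limma adjusted p = 0.3). Its second, dimmer probe set had the opposite sign, a difference of 1.48. Mfng, Manic fringe, stood at 6.41 in peri-implant tissue and 5.59 in mucosa (limma adjusted p = 0.146). The mucosal mean of Mfng lay below the filter cutoff, and 2 of its mucosal arrays were dim. Mfng was thus tested only because of its peri-implant signal. Its unadjusted p under 0.05, the 1 of 3 above, carries no weight in that count. Rfng, Radical fringe, and the glucosyltransferase gene Poglut1 had differences of 0.0010 and 0.09 (adjusted p = 0.996 and 0.569 in limma).

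Among 9 tested further targets, 2 were higher and 2 were lower (44.4% called, against 26.1% of all genes). So short a list cannot be weighed against that share. Cdkn1a, the cell cycle inhibitor p21, which Notch induces in keratinocytes, fell by 0.48 (SE 0.07, limma adjusted p = 4.41e-04), and its second probe set fell by 0.49 (limma adjusted p = 0.00805). Il7r, a Notch target in T cells, rose by 1.48 (SE 0.29, limma adjusted p = 0.00222), and Id3, a regulator that many signals induce, rose by 0.43 (limma adjusted p = 9.65e-04). Ccnd1, cyclin D1, named after its values were seen, fell by 0.34 (limma adjusted p = 0.0136). It missed the threshold with no trend in the variance model, without peri-implant array 1 or 2 and without mucosal array 1 (limma adjusted p over its alternatives 0.00319 to 0.104). Of the other Ccnd1 probe sets, the brighter fell by 0.52 (limma adjusted p = 0.00319). The dimmer had overlapping groups and a difference of -0.21 that did not pass (limma adjusted p = 0.24).

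Hes5, a classical Notch target best known from the nervous system, lay below the filter and was also named after its values were seen. Its brighter probe set read 3.29, 2.68 and 3.79 in peri-implant tissue, all dim, against 5.93, 5.72 and 5.93 in mucosa, around the dim floor. The groups did not overlap, and the difference was -2.60 (limma adjusted p = 0.0451 without the filter). Its second probe set, dim on all 6 arrays, had the opposite sign, a difference of 1.25 (limma adjusted p = 0.451 without the filter).

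Nrarp, a feedback inhibitor induced directly by Notch, was also named after its values were seen. Its brightest probe set did not pass (difference -0.18, limma adjusted p = 0.372), while its second fell by 0.34 (limma adjusted p = 0.0161) and the third had a difference of -0.70 (limma adjusted p = 0.0782). The second probe set read 10.02, 10.04 and 9.85 in peri-implant tissue, against 10.21, 10.33 and 10.39 in mucosa, without overlap. The mean of the 3 probe sets fell by 0.41 (limma adjusted p = 0.0131). That was the only 1 of the 16 alternatives for Nrarp that passed, and the adjusted p of limma over all 16 ran from 0.0131 to 0.868.

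The tissues also differed in some markers of the cell types such samples can hold. In whole tissue, fewer cells of a type and less RNA per cell cannot be told apart. Among all genes tested, 15.2% were called higher and 11.0% lower, 26.1% in either direction. The share called was 100% for leukocyte, 87.5% for fibroblast, 70% for keratinocyte and 50% for mural cell markers. For endothelial markers it was 9.09%, below that of all genes. All 9 tested leukocyte markers were higher in peri-implant tissue (11 of 12 on the array, summed linear signal 33530 to 35000 in peri-implant tissue and 10580 to 10920 in mucosa). Cd74 and Lyz2 rose by 3.15 and 1.34 (adjusted p = 1.41e-11 and 1.04e-07 in limma), while Itgam lay below the filter and was dim in mucosa, and Cd79b lay below it and was dim on all 6 arrays. Cd3e was dim on all 3 mucosal arrays, with a mean over all arrays of 5.686, just above the filter, so it was tested only because of its peri-implant signal and its call carries no weight in that count. Fibroblast markers were lower in 6 of 8 and higher in 1 (summed signal 39800 to 41660 in peri-implant tissue and 64010 to 70190 in mucosa), and Col1a1 and Col3a1 fell by 0.83 and 0.83 (adjusted p = 3.57e-06 and 1.25e-05 in limma). Keratinocyte markers, bright in both tissues, were higher in 3 and lower in 4 of 10 (summed signal 309300 to 411100 in peri-implant tissue and 350200 to 490000 in mucosa). Krt1 rose by 1.14 and the basal integrin Itga6 fell by 1.03 (adjusted p = 1.05e-06 and 2.96e-07 in limma). Endothelial markers gave 1 call of 11, Kdr, higher by 0.70 (limma adjusted p = 0.0327, 0.025 to 0.869 over its alternatives), a call lost with the mean of its probe sets, without any 1 peri-implant array, and without mucosal array 2 or 3. Tek had a difference of 0.47 (limma adjusted p = 0.106), and the summed endothelial signal was 1936 to 2035 in peri-implant tissue and 1452 to 1856 in mucosa. Mural cell markers gave 1 higher and 3 lower of 8 (summed signal 1113 to 1321 in peri-implant tissue and 1538 to 1678 in mucosa). Cspg4 fell by 2.07 and Rgs5 rose by 0.85 (adjusted p = 1.31e-05 and 0.00373 in limma). Of the 7 skeletal muscle markers on the array 1 passed the filter, Myh1, with a difference of -0.02 (limma adjusted p = 0.897), and the median difference of the 7 was -0.56 (summed signal 3377 to 3842 in peri-implant tissue and 3762 to 3961 in mucosa). Below the filter, the skeletal muscle actin Acta1 read 2.52, 1.55 and 4.53 in peri-implant tissue, all dim, against 6.90, 6.97 and 6.94 in mucosa (limma adjusted p = 0.00469 without the filter). Actn3 and Myh2 also had groups that did not overlap, with differences of -2.27 and -2.13 (adjusted p = 0.111 and 0.297 in limma without the filter). Tnnt3, by its brighter probe set, and Myh4 went the other way, with differences of 1.115 and 0.57. Their groups overlapped (adjusted p = 0.654 and 0.853 in limma without the filter). Ckm had a difference of -0.56, also with overlap (limma adjusted p = 0.654 without the filter). No marker on the array stood at 0 on all 6 arrays. The part of these shifts in the values of Jag1, Dll1 or the other genes was not tested.

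Jag1 was most like Ndel1 and Tpm4 over the 6 arrays, both with a Pearson correlation of 0.9965. Dll1 was most like Rab7b and Exoc7, with correlations of 0.9923 and 0.9895. These describe 6 points that share the difference between the 2 tissues: 269 of the other genes tested correlated above 0.95 with Jag1 and 28 with Dll1.

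**Figure D4:**
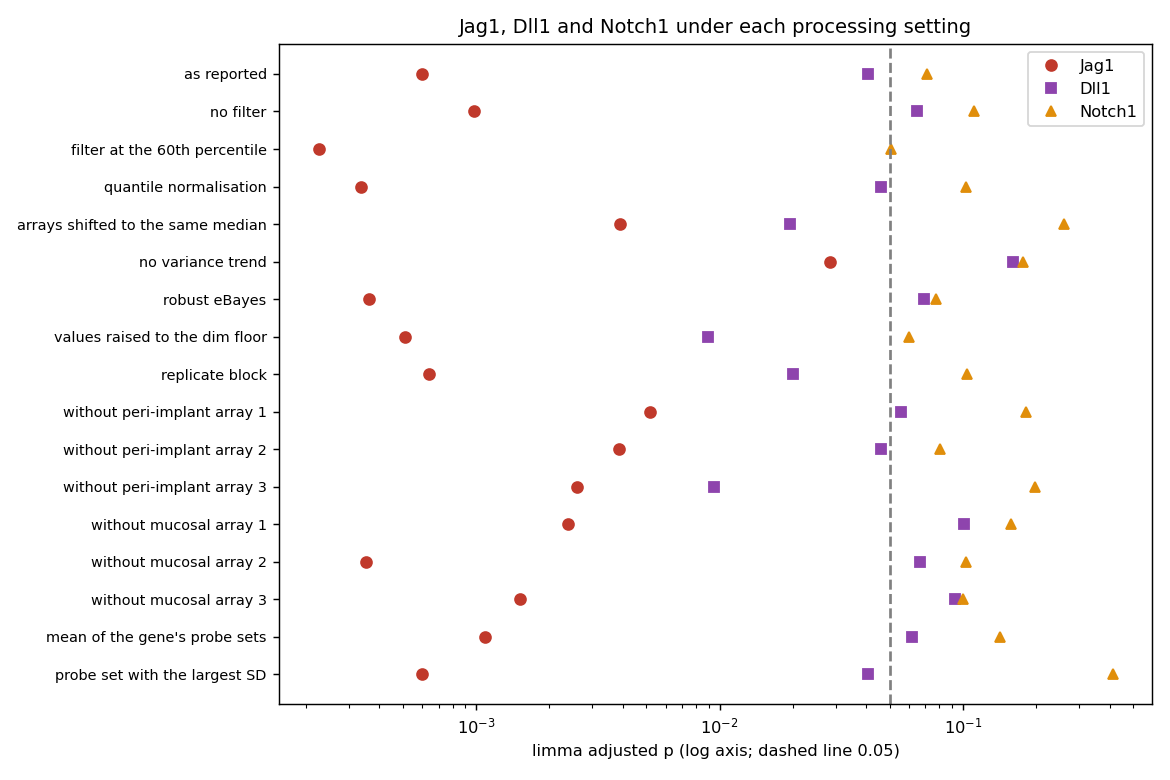
Limma adjusted p (log axis) of Jag1, Dll1 and Notch1 as reported and under each of the 16 alternatives, with a dashed line at 0.05. Jag1 lies left of the line in all, Notch1 right of it in all, and Dll1 on both sides. Dll1 has no point with the filter at the 60th percentile, which it did not reach.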

How the data were processed

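Per the labels' protocols, RNA of the 6 samples was amplified and biotin-labelled with a GeneChip 3' kit from Affymetrix. The authors deposited log2 signals scaled per array: the linear mean, trimmed by 2% at both ends, was 500.2 for every array, medians ran from 6.62 to 6.78, and 150 to 382 probe sets per array stood at 0. Software and background method: not given in the sources used here. Precision is limited by 3 arrays per group.

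The values were fitted as deposited with limma 3.58.1 in R 4.3.3 (lmFit, eBayes with a variance trend, two-sided), leaving out 57 control probe sets and those with a mean at or below the 40th percentile. The brightest probe set stood for each gene. A probe annotation table gave 1 symbol for 20826 non-control probe sets, several for 436 and none for 9780. Named genes were the 10 members, the 3 with the smallest p of each pathway list and 2 of each marker list, plus the 2 genes most correlated with each called member. Adam10, Rbpj, Nedd4, Hdac1, further probe sets, Ccnd1, Nrarp, Hes5, Cd79b, Itgam and Cd3e were added after their values were seen. So were the muscle genes Acta1, Actn3, Myh2, Tnnt3, Myh4 and Ckm. The log2 ratios between members were not among the planned results. Members and lists were chosen with earlier results of these data known. The fit was tested on simulated data. Alternatives covered the filter, scaling, variance model, dim values, probe set choice, a replicate block and leaving out each array. Promoter sequences are RefSeq's (GRCr8).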

Additional observations from a re-analysis of the deposited data

How the results depend on the processing

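Over 584 recomputed differences of single genes, 534 kept their direction and their side of the threshold, 29 lost a call, 6 gained one and 15 changed sign. The filter, variance model and replicate block settings leave the difference itself unchanged, so only the call could move there. For a gene whose most variable probe set is also its brightest, that setting repeats the reported fit. The count of kept values was thus partly fixed in advance. The count of members called higher was 0 in every alternative. The count called lower was 2 as reported and 1 with no filter, with the filter at the 60th percentile, without the variance trend, with robust eBayes and with the mean of the probe sets, since Dll1 then missed the threshold or, at the 60th percentile, was not tested. It was 1 to 2 when single arrays were left out. Probe sets called lower numbered 1945 as reported and 1287 without the variance trend. Sign changes were all in values that did not pass: with single arrays left out, the differences ran from -0.0692 to 0.199 for Notch3, -0.23 to 0.0279 for Jag2, -0.139 to 0.0082 for Hes1, -0.175 to 0.064 for Hey2, -0.0532 to 0.0483 for Rfng and -0.0647 to 0.0329 for Myh1. Under quantile normalisation Rfng was -0.0489 and Myh1 0.0312. Rfng was also -0.0186 with arrays shifted to the same median, -0.109 with the mean of its probe sets and -0.22 with its most variable one. The causes were not tested. With the replicate number of the titles as a block, 2172 probe sets were called higher and 1904 lower, and 0 members higher and 2 lower. The labels do not say whether same-numbered samples of the tissues came from the same rat, and the groups were fitted as unpaired. Deviations of same-numbered arrays correlated at 0.013, -0.08 and 0.03. With so few arrays, and with numbers that need not follow the rats, these values cannot decide whether rats were shared. For Notch2, Hey1 and Lfng, dim signal sets the limit.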
